A study of Oryza sativa with 6 samples.

Results

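The repressive marks H3K27me3 and H3K9me3 were compared along the 12 rice chromosomes in bins of 500 kb. The comparison took 2 of the 6 libraries of the series, namely the peaks immunoprecipitated with antibodies against H3K27me3 and H3K9me3. It covers 753 bins, which is every bin of the 12 chromosomes, and 15918 of the 82347 peaks listed for the 6 marks. In each bin, the bases covered by peaks of each mark were summed. The end of the last peak in any of the 6 lists stood for the end of a chromosome, so 741 bins were full and the last bin of each chromosome was shorter, from 2.23 to 457 kb.

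Chromatin was isolated from the leaves of 2-week-old greenhouse seedlings of the cultivar Nipponbare, with no treatment and no mutant. Each of H3K27me3, H3K9me3, H3K9me1, H3K4ac, H3K9ac and H3K27ac has 1 library, and the libraries differ in the antibody. The seedlings pooled for a library are not counted in the labels. With 1 library per mark, differences between marks have no replicate check, no p-value is given, and a mark, its antibody and its library cannot be told apart.

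Both marks are linked to silent chromatin, but they belong to different systems. H3K27me3 is written by Polycomb repressive complex 2, mostly over single genes that are kept silent in a tissue or stage and can be switched on later. Methylation of H3K9 marks transposons and repeats in constitutive heterochromatin. In plants the dimethylated form is the main heterochromatin mark, while H3K9me3 is sparse and in Arabidopsis has also been described at genes in euchromatin. The acetylation marks H3K4ac, H3K9ac and H3K27ac accompany active genes. A bin of 500 kb holds many genes and repeats, so the comparison describes large parts of chromosomes and not single genes.

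The H3K27me3 list held 12959 peaks over 25.8 Mb, or 6.93% of the summed chromosome length of 373 Mb, and the H3K9me3 list 2959 peaks over 8.34 Mb, or 2.23%. A peak is a region in which reads piled up above background. Read depth is unknown, so the lengths of the lists can reflect sequencing as well as the mark. A bin contained a median of 17 H3K27me3 peaks but 4 H3K9me3 peaks, so the H3K9me3 value of a bin rests on few peaks. The scores of the peak caller also differed. A score of at least 100 was reached by 9922 of the H3K27me3 peaks, compared with 149 of the H3K9me3 peaks.

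H3K27me3 covered between 0 and 93.0 kb of a bin, with a median of 33.1 kb and quartiles of 22.5 and 45.2 kb. H3K9me3 covered between 0 and 41.6 kb, with a median of 10.2 kb and quartiles of 6.41 and 14.8 kb. Relative to their means both marks varied to a similar degree, with a coefficient of variation over bins of 49.3% for H3K27me3 and 59.8% for H3K9me3. No H3K27me3 was listed in 5 bins and no H3K9me3 in 25 bins, and a single bin, 1 of the shorter last bins, lacked both. Although H3K27me3 has the longer list, H3K9me3 covered more bases than H3K27me3 in 83 bins (11.02%). Of these bins, 59 lay between 20 and 60% of the length of their chromosome and 16 lay on chromosome 5. The 2 marks were thus both spread over nearly the whole genome at this scale.

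Across the 753 bins, the covered lengths of H3K27me3 and H3K9me3 were close to unrelated, with a Spearman's rho of -0.073. This is a description over bins, which share the same libraries and are not independent of their neighbours. When the bins were ordered by H3K27me3 and cut into 5 groups of almost equal size, the median of H3K9me3 was 11.6 kb in the lowest group (quartiles 7.97 and 15.3 kb), 10.1 kb in the middle group and 9.56 kb in the highest group (quartiles 5.63 and 13.5 kb). In the opposite direction, the median of H3K27me3 was 35.9 kb in the group with the least H3K9me3 and 31.2 kb in the group with the most. The quartile ranges of the lowest and highest groups overlapped over most of their width in both directions. Rich H3K27me3 therefore went with slightly less H3K9me3, but the amount of one mark in a bin said little about the amount of the other. The sign did not hold for the number of peaks in place of the bases they cover, which gave a rho of 0.003. When both lists were limited to scores from 100 upwards, the rho was -0.027.

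Bins of other sizes also gave small negative values. The rho was -0.009 for bins of 10 kb, -0.024 for 100 kb, -0.086 for 250 kb, -0.057 for 1000 kb and -0.093 for 2000 kb, all computed after the 500 kb value had been seen except those of 250 and 1000 kb. In bins of 10 kb, 90.1% held no H3K9me3, so the values for small bins are mostly ties. Without the shorter last bins the rho was -0.026 at 100 kb, -0.092 at 250 and 500 kb, -0.111 at 1000 kb and -0.191 at 2000 kb. Among full bins it was thus more negative in larger bins. When H3K27me3 of a bin was compared with H3K9me3 of the bins around it, the rho was -0.062 with the next bin, -0.058 with the bin before and -0.015 at 4 bins further on. The negative sign was thus shared by neighbouring bins and faded over 2 Mb.

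Both marks had a patchy order along the chromosome, H3K9me3 more so. The covered length of a bin and that of the next bin had a rho of 0.297 for H3K27me3 and 0.101 for H3K9me3, over 741 pairs of neighbours. At 4 bins further on the values were 0.178 and 0.056 for H3K27me3 and H3K9me3 in that order. The acetylation marks were smoother, at 0.733 for H3K9ac, 0.723 for H3K4ac and 0.495 for H3K27ac with the next bin. Among the 15 pairs of marks, H3K27me3 with H3K9me3 ranked 11 by the size of the rho over bins. H3K27me3 was positively related to H3K9ac (0.226) and H3K4ac (0.188), whereas H3K9me3 was negatively related to both (-0.158 and -0.143) and positively to H3K9me1 (0.241). For H3K27me3 with H3K9me1 the rho was -0.003. The 2 repressive marks thus differed in sign in their relation to acetylation, although each of these values is small. Holding the ranks of the 3 acetylation marks fixed, the rho of H3K27me3 with H3K9me3 was -0.031.

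To describe the extremes, a bin was called high in a mark when it was at or above the 80th percentile of the 753 bins and low when it was at or below the 20th percentile. For H3K27me3 the limits were 48.2 and 19.4 kb, and for H3K9me3 16.2 and 5.61 kb, with 151 bins beyond each limit. The values just inside and outside lay close together: 48.2 and 48.1 kb at the high limit of H3K27me3, and 16.26 and 16.23 kb at that of H3K9me3. The bins high in H3K27me3 and low in H3K9me3 numbered 37, or 4.91% of all bins (95% Wilson interval 3.59 to 6.70%, counting error only). The bins high in H3K9me3 and low in H3K27me3 numbered 34, or 4.52% (3.25 to 6.24%). There were 27 bins high in both marks, or 3.59% (2.48 to 5.17%), and 23 bins low in both, or 3.05% (2.04 to 4.54%). If the shares of high and low bins are multiplied, each class has 30.3 bins. The 71 opposed bins were thus more numerous than the 50 bins in which the marks went together, but the interval of each of the 4 classes included the product of the shares, 4.02%. By the number of peaks per bin, the bins numbered 47 for high H3K27me3 with low H3K9me3, 30 for high H3K9me3 with low H3K27me3, 40 for high in both and 44 for low in both, so the opposed bins no longer outnumbered the others. Peak numbers are small whole numbers, and bins tied at a limit all count as beyond it. These classes can thus be larger and cannot be set against the 30.3 bins.

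**Figure D1:**
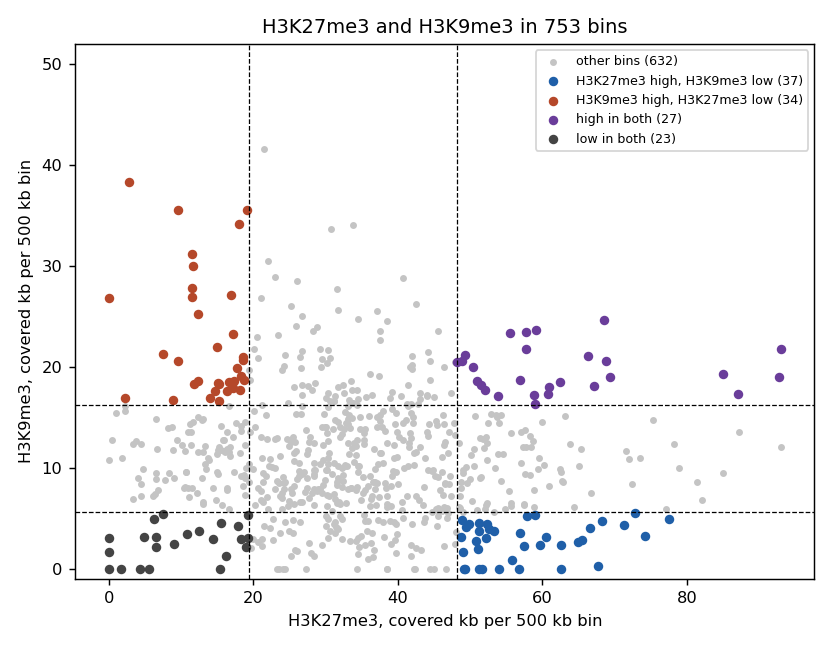
Covered kb of H3K27me3 (x axis) and of H3K9me3 (y axis) in each of the 753 bins, 1 point per bin, with dashed lines at the 20th and 80th percentile of each mark and colours for the 4 corner classes. The points form a single broad cloud with no clear trend (rho -0.073), and the 37 and 34 bins of the opposed corners are only slightly more than the 27 and 23 of the others.

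Position along the chromosome separated the marks more clearly than the bins did. H3K27me3 covered 4.91% of the bases between 40 and 50% of the chromosome length and 5.20% between 30 and 40%, but 8.23% between 70 and 80%. H3K9me3 had its highest values where H3K27me3 was lowest, with 2.56% from 30 to 40% and from 40 to 50% of the length. Its lowest values lay at the chromosome ends, with 1.81% in the first 10% of the length and 1.62% in the last 10%. In these end segments H3K27me3 covered 7.39 and 7.71%. H3K27me3 thus had a dip before the middle of the chromosomes and no loss at the ends, whereas H3K9me3 had a shallow plateau in the same stretch and dropped towards both ends.

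These differences recurred on most chromosomes. The stretch from 30 to 50% of the length was chosen after the profile had been seen. There H3K27me3 covered 5.07 ± 1.57% of the bases, compared with 7.39 ± 0.73% of the rest of the chromosome (mean ± SD over 12 chromosomes), and it was lower in the stretch on 10 chromosomes. The exceptions were chromosome 3, with 7.64% against 6.51%, and chromosome 9, with 8.15% against 6.76%. H3K9me3 covered 2.55 ± 0.25% of the stretch, compared with 2.16 ± 0.23% of the rest, and was higher in the stretch on 12 of 12 chromosomes. The smallest of these differences was on chromosome 5, with 2.62% against 2.60%. In the 2 end segments together, also chosen after seeing the values, H3K9me3 covered 1.73 ± 0.39%, compared with 2.36 ± 0.23% of the inner part, and was lower on 11 chromosomes. Chromosome 4 was the exception, with 2.33% against 2.16%. H3K27me3 covered 7.58 ± 1.399% of the end segments and 6.76 ± 0.69% of the inner part, and it was higher in the end segments on 7 chromosomes and lower on 5. The chromosomes come from the same libraries and are not replicates, so no test was made.

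**Figure D2:**
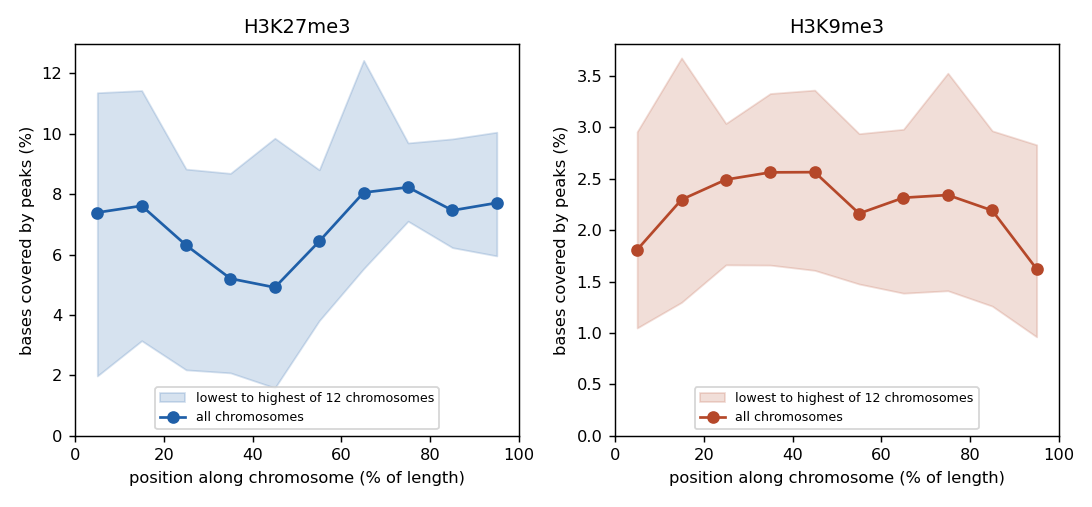
Percent of bases covered by H3K27me3 (left) and H3K9me3 (right) in 10 equal segments of the chromosome length, with points for all chromosomes together and a band for the lowest and highest of the 12 chromosomes; the y axes differ in scale. H3K27me3 falls to 4.91% between 40 and 50% of the length, where H3K9me3 is at 2.56%, and H3K9me3 is lowest in the end segments, at 1.81 and 1.62%.

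The first and the last 50% of the length also differed. H3K27me3 covered more of the last 50% on 10 chromosomes, and H3K9me3 more of the first 50% on 10 chromosomes. For H3K9me3 the parts were nearly equal on chromosome 1 (2.36 and 2.35%), chromosome 11 (2.20 and 2.18%) and chromosome 12 (2.34 and 2.33%). The 3 chromosomes given next had the largest H3K9me3 differences. On chromosome 9, H3K27me3 covered 5.53% of the first part and 8.53% of the second, while H3K9me3 covered 2.30 and 1.52%. Chromosome 4, whose short arm is known as heterochromatic, had 4.73 and 7.92% for H3K27me3 and 2.53 and 1.85% for H3K9me3. Chromosome 10, also known for a heterochromatic short arm, had 6.52 and 7.32% for H3K27me3 and 2.77 and 1.96% for H3K9me3. H3K9ac was lower in the first part on 8 of the 12 chromosomes, these 3 included, for example at 4.02% compared with 9.35% on chromosome 4. Arm limits were not used here, so these parts are not chromosome arms.

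Among bins of the same segment of relative position the marks were nearly unrelated. When bins were ranked within their segment, the rho over the 753 bins was -0.022, and within single segments it ranged from -0.132 between 60 and 70% of the length to 0.164 in the last 10%. Ranks within each chromosome gave a rho of -0.060. Among the 596 bins between 10 and 90% of the length, ranked together, the rho was -0.081. All of these are full bins, and over the 741 full bins of the whole length the rho was -0.092. Leaving out the chromosome ends thus changed it little.

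The corner classes followed the same order along the chromosome. Of the 37 bins high in H3K27me3 and low in H3K9me3, 16 (43.2%) lay in the end segments, which hold 20.8% of all bins, and 9 of them lay in the last 10%. The end segments also held 62 of all 151 bins low in H3K9me3, some of them shorter last bins, and 40 of the 151 high in H3K27me3. The share of this class there was thus near that of low H3K9me3 alone. Of the 34 bins high in H3K9me3 and low in H3K27me3, 3 (8.82%) lay in the end segments and 0 in the last 10%, while 23 (67.6%) lay between 20 and 60% of the length, which holds 40.0% of all bins. The stretch from 30 to 50% held 13 of these 34 bins. It also held 55 of all 151 bins low in H3K27me3 and 39 of the 151 high in H3K9me3. In that stretch the class was thus near low H3K27me3 alone. The bins low in both also gathered at the ends, with 13 of 23 in the end segments, but 6 of the 23 were shorter last bins, in which neither mark can cover much. The bins high in both marks were more even, with 6 of 27 in the end segments and 7 between 20 and 60% of the length. Few bins of a class were neighbours: 4 of the 37, 8 of the 34, 2 of the 27 and 2 of the 23 touched another bin of their class. A single mark could be high or low over longer stretches, which were picked after their values were seen. All 5 bins of chr11:17500001-20000000 were high in H3K27me3, with 57.0 to 93.0 kb, and all 9 bins of chr5:9500001-14000000 were low in it, with 0 to 17.3 kb. H3K9me3 in these stretches ranged from 9.62 to 21.8 kb on chromosome 11 and from 8.77 to 26.8 kb on chromosome 5.

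**Figure D3:**
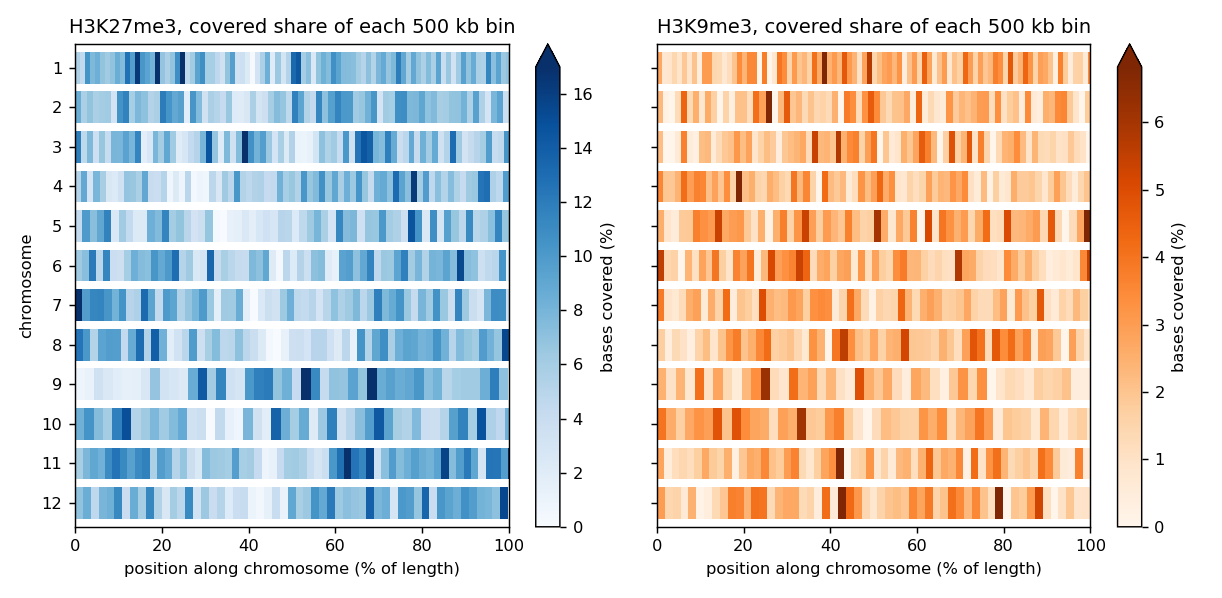
Percent of each 500 kb bin covered by H3K27me3 (left, blue) and H3K9me3 (right, orange) along the 12 chromosomes, with position as percent of the chromosome length and 1 colour scale per mark that ends at its 99th percentile. Pale stretches of H3K27me3 lie between 30 and 50% of the length on 10 chromosomes, and single dark bins of H3K9me3 are scattered among pale ones.

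By chromosome, the rho of H3K27me3 with H3K9me3 was below 0 on 9 chromosomes and above 0 on 3, with a median of -0.075. It was lowest on chromosome 5 (-0.354 over 60 bins), followed by chromosome 9 (-0.157 over 47 bins) and chromosome 8 (-0.155 over 57 bins). It was highest on chromosome 11 (0.222 over 59 bins) and chromosome 3 (0.138 over 73 bins). Leaving out 1 chromosome at a time, the rho over the remaining bins ranged from -0.098 without chromosome 3 to -0.044 without chromosome 5. Chromosome 5 thus moved the overall value most.

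Chromosome 5 had the lowest share of H3K27me3 of the 12 chromosomes, 5.89%, and the highest share of H3K9me3, 2.60%. It held 10 of the 34 bins high in H3K9me3 and low in H3K27me3, or 16.7% of its bins compared with 4.52% of all bins. They were spread from 9.18 to 80.9% of its length, and no 2 of them were neighbours. H3K27me3 in these bins ranged from 0 to 18.7 kb and H3K9me3 from 18.3 to 30.01 kb. The most extreme lay at chr5:10000001-10500000, with 0 kb of H3K27me3 and 26.8 kb of H3K9me3. Acetylation in the 10 bins was not uniformly low. H3K9ac covered 7.91 kb in that bin but 56.2 kb at chr5:24000001-24500000, where H3K27me3 covered 12.3 kb and H3K9me3 25.3 kb.

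Chromosome 11 was the opposite case. Its H3K27me3 share was the highest, 8.18%, with an H3K9me3 share of 2.19%, and 20 of its 59 bins (33.9%) were high in H3K27me3. It held 5 of the 27 bins high in both marks, or 8.47% of its bins compared with 3.59% of all bins. Of its 59 bins, 12 (20.3%) were high in H3K9me3. With so many bins high in H3K27me3, a larger share high in both follows in part from that mark alone. The bin with the most H3K27me3 of the genome, at chr11:18000001-18500000, had 93.0 kb of H3K27me3 in 31 peaks and 21.8 kb of H3K9me3 in 7 peaks. The bin with the most H3K9me3, at chr11:12000001-12500000, had 21.5 kb of H3K27me3 and 41.6 kb of H3K9me3. It also had the most H3K9me1 of any bin, 54.1 kb, and 54.4 kb of H3K4ac, so several marks of both kinds were listed there. H3K27me3 was thus at its peak in a bin where H3K9me3 was high, and H3K9me3 at its peak in a bin where H3K27me3 was neither high nor low.

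Chromosome 9 carried the largest share of opposed and paired extremes together. It had 5 bins high in H3K27me3 and low in H3K9me3 (10.6% of its 47 bins, against 4.91% of all bins), 3 of the reverse and 4 low in both (8.51%, against 3.05%). Of its bins, 29.8% were low in H3K27me3 and 34.0% low in H3K9me3. Bins low in both are more frequent with such single shares, so the 4 bins are no sign of joint loss. The shorter last bin, of 11.4 kb, is 1 of them. The first 3 Mb were poor in H3K27me3, with 4.48, 6.23, 16.8, 12.4, 9.56 and 7.53 kb in the 6 bins. H3K9me3 alternated in the same bins, with 12.3, 4.95, 12.05, 3.77, 20.6 and 5.38 kb. Low H3K27me3 there was joined by both high and low H3K9me3. Chromosome 4 and chromosome 9 had 0 bins high in both marks, and chromosomes 1, 5 and 8 had 0 low in both. Chromosome 9 also had the lowest H3K9me3 share of the 12 chromosomes, with 7.03% of its bases covered by H3K27me3 and 1.91% by H3K9me3.

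**Figure D4:**
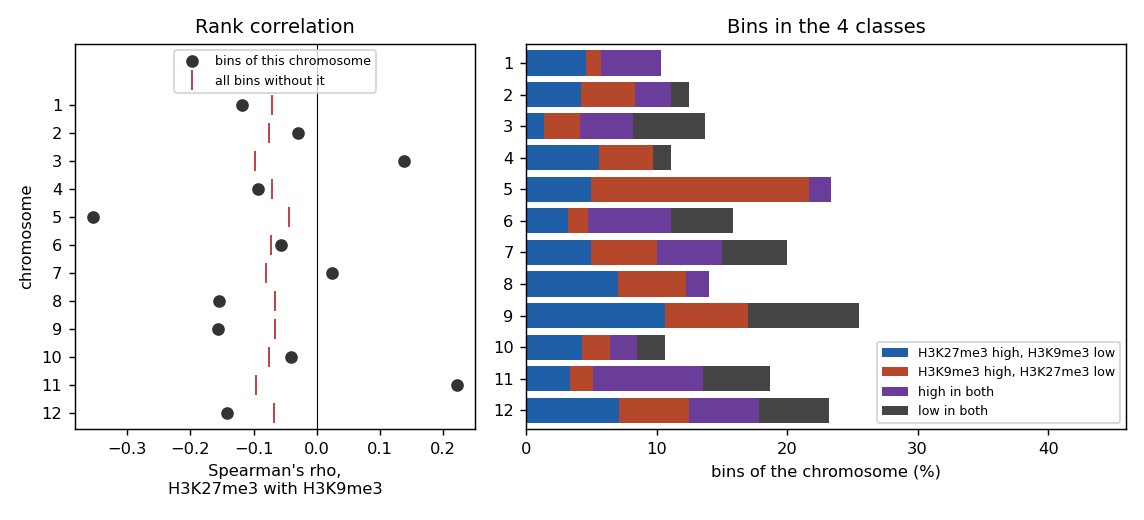
Left, Spearman's rho of H3K27me3 with H3K9me3 over the bins of each chromosome (dots) and over all bins without that chromosome (red ticks). Right, percent of the bins of each chromosome in the 4 corner classes. Chromosome 5 has the lowest rho (-0.354) and 16.7% of bins high in H3K9me3 and low in H3K27me3, and chromosome 11 has the highest rho (0.222) and 8.47% of bins high in both.

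The bins high in H3K27me3 and low in H3K9me3 had a median of 55.8 kb of H3K27me3 in 26 peaks and 3.09 kb of H3K9me3 in 1 peak. By the largest difference in rank, they were led by chr12:22000001-22500000, with 67.6 kb of H3K27me3 and 0.248 kb of H3K9me3. The following bins lay at chr3:23500001-24000000 (62.5 kb of H3K27me3), chr5:18000001-18500000 (56.8 kb), chr6:7000001-7500000 (64.9 kb) and chr11:27500001-28000000 (62.6 kb). H3K9me3 covered 0, 0, 2.67 and 2.39 kb of these 4 bins. They came from 5 chromosomes and from 23.2 to 95.6% of the length, so the strongest examples were not confined to the ends. Their H3K9ac lay between 24.0 and 41.9 kb, around the genome median of 32.7 kb.

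The bins high in H3K9me3 and low in H3K27me3 had a median of 15.1 kb of H3K27me3 in 9 peaks and 20.3 kb of H3K9me3 in 7 peaks. The largest difference in rank was at chr12:11500001-12000000, with 2.78 kb of H3K27me3 and 38.3 kb of H3K9me3, the second highest H3K9me3 value of the genome. This bin also had 18.7 kb of H3K9me1, compared with a median of 4.63 kb over all bins. It was followed by the bin on chromosome 5 with no H3K27me3 given above and by chr2:9000001-9500000, with 9.57 kb of H3K27me3 and 35.6 kb of H3K9me3. The others lay at chr9:5500001-6000000, with 11.5 and 31.2 kb, and chr8:12000001-12500000, with 11.5 and 27.8 kb. All 5 lay between 24.99 and 43.1% of the length of their chromosomes, and all had less H3K9ac (7.91 to 27.4 kb) than the genome median. H3K9ac was low in this part in general. It covered 5.72% of the bases between 20 and 30% of the length, 4.88% between 30 and 40% and 4.71% between 40 and 50%, compared with 7.00% of the whole length. Of these 5 bins, 3 lay in the stretch from 30 to 50% of the length and 2 before it.

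The peaks of these classes differed in width more than in score. H3K27me3 peaks had a median width of 1777 bp in the bins high in H3K27me3 and low in H3K9me3 and 1189 bp in the reverse class, compared with 1521 bp over all bins. H3K9me3 peaks had a median width of 2240.5 bp in the bins high in H3K27me3 and low in H3K9me3 and 3156.5 bp in the reverse class, compared with 2558 bp. Wider peaks add more covered bases, so a difference in this direction is part of how the bins were divided. The median score of the H3K27me3 peaks was 210.2 and 209.7 in the 2 classes, and that of the H3K9me3 peaks 59.0 and 61.0. A bin rich in a mark thus held more and wider peaks, of ordinary score.

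The other 4 marks were not used to divide the bins. H3K9ac covered a median of 34.7 kb in bins high in H3K27me3 and low in H3K9me3 (quartiles 30.3 and 43.1 kb), and 27.3 kb in bins high in H3K9me3 and low in H3K27me3 (quartiles 21.2 and 31.5 kb). The median over all bins was 32.7 kb. H3K4ac showed the same order, with 44.2 and 38.0 kb, and H3K27ac had 13.9 and 11.2 kb. The full ranges overlapped for each of these marks. Acetylation also changed with position, and H3K9ac covered 8.21 and 9.49% of the bases in the end segments but 4.71% between 40 and 50% of the length. Among bins between 10 and 90% of the length, a division made after seeing the data, the medians of H3K9ac were 33.5 kb in 21 bins of the first class and 27.2 kb in 31 bins of the second, while those of H3K27ac were 11.002 and 11.122 kb and no longer had that order. H3K9me1 covered 4.21 kb in bins high in H3K27me3 and low in H3K9me3 and 4.95 kb in the reverse class.

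The bins in which both marks went together were not alike in acetylation either. Bins high in both had medians of 30.9 kb of H3K9ac, 39.4 kb of H3K4ac and 9.03 kb of H3K27ac, and bins low in both had 21.3, 29.7 and 8.37 kb. The bins low in both were thus poor in acetylation as well, although the 6 shorter last bins are among them. H3K9me1 covered a median of 2.83 kb in bins low in both and 5.42 kb in bins high in both. Leading the bins high in both were the bin with the most H3K27me3 on chromosome 11 and chr3:24500001-25000000, with 68.5 kb of H3K27me3 and 24.6 kb of H3K9me3. This last bin lies 500 kb after the one at chr3:23500001-24000000, where H3K9me3 was listed at 0 with 62.5 kb of H3K27me3. Bins close to each other with similar H3K27me3 could therefore differ fully in H3K9me3.

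**Figure D5:**
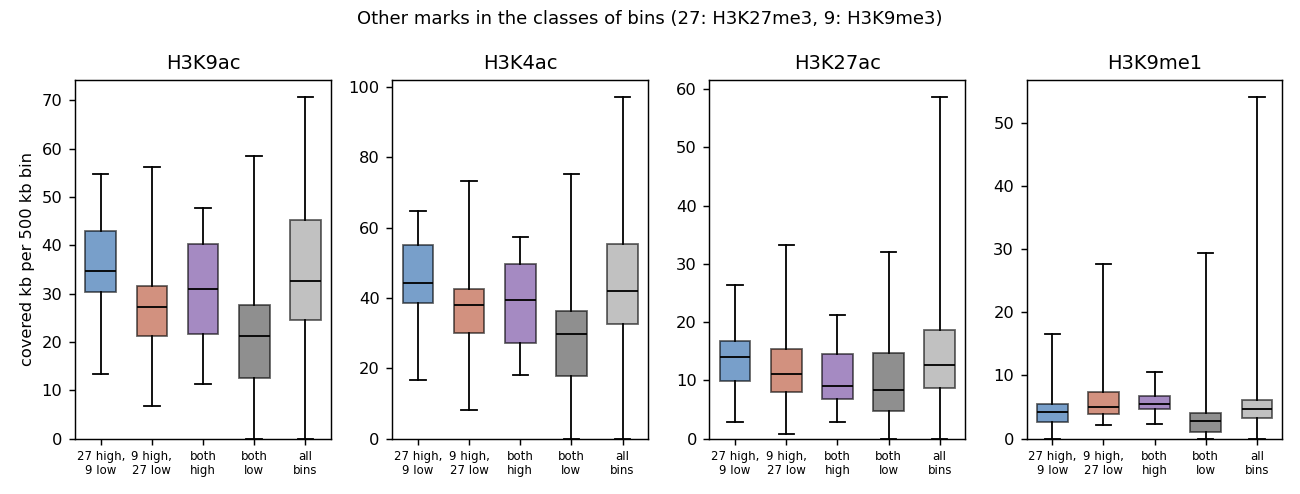
Covered kb per 500 kb bin of H3K9ac, H3K4ac, H3K27ac and H3K9me1 in the 4 corner classes and in all 753 bins; boxes give quartiles, black lines medians and whiskers the full range. H3K9ac has a median of 34.7 kb in bins high in H3K27me3 and low in H3K9me3 and 27.3 kb in the reverse class, with overlapping ranges, and is lowest in bins low in both, at 21.3 kb.

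Wider windows were also compared on each chromosome. On every chromosome, the window of 5 neighbouring bins, or 2.5 Mb, with the most H3K27me3 and that with the most H3K9me3 were located. The windows richest in H3K27me3 had 8.46 to 14.2% of their bases covered by H3K27me3 and 1.16 to 2.79% by H3K9me3. In these windows H3K9me3 was above its chromosome's own share on 6 chromosomes and below it on 6. The windows richest in H3K9me3 had 2.24 to 9.66% covered by H3K27me3 and 3.01 to 4.08% by H3K9me3, and H3K27me3 was above its chromosome's share on 5 chromosomes and below it on 7. The 2 windows overlapped on 1 of the 12 chromosomes. The richest H3K9me3 windows had a median position of 28.7% of the length (12.5 to 81.8%), whereas the richest H3K27me3 windows fell into 2 sets, 6 between 4.17 and 20.01% and 6 between 59.1 and 88.1% of the length.

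Single chromosomes show how different these windows could be. On chromosome 1 the richest H3K9me3 window, chr1:16500001-19000000, had 2.99% covered by H3K27me3 and 3.89% by H3K9me3, while the chromosome as a whole had 7.44 and 2.36%. On chromosome 12 the window chr12:10500001-13000000 had 2.24% of H3K27me3 and 3.96% of H3K9me3, compared with 7.06 and 2.34% of the chromosome. On chromosome 3, by contrast, the window chr3:13000001-15500000 was richer in both marks, with 9.66% of H3K27me3 and 3.58% of H3K9me3, compared with 6.72 and 2.03% of the chromosome. The richest H3K27me3 window of the genome, chr11:17500001-20000000, had 14.2% of H3K27me3 and 2.79% of H3K9me3, compared with 8.18 and 2.19% of chromosome 11. Depletion of H3K27me3 in the richest H3K9me3 window was thus marked on chromosomes 1 and 12 and reversed on chromosome 3.

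Within the bins, the marks rarely covered the same bases. They shared 402 kb, which is 1.56% of the H3K27me3 length and 4.83% of the H3K9me3 length. Multiplying the shares of the genome that the marks cover gives 577 kb. Of the H3K27me3 peaks, 349 of 12959 (2.69%, 95% Wilson interval 2.43 to 2.99%) overlapped an H3K9me3 peak by at least 1 bp, and of the H3K9me3 peaks, 328 of 2959 (11.1%, 10.004 to 12.3%) overlapped an H3K27me3 peak. How often peaks of these widths and numbers would meet if placed at random was not computed. The overlap counts thus do not say whether peaks met rarely or often. Shared bases were found in 249 of the 753 bins. The distance of an H3K9me3 peak to the nearest H3K27me3 peak had a median of 8.76 kb.

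The peaks that met also differed in the marks around them. H3K27me3 peaks on H3K9me3 lay on H3K4ac in 32.7% of cases, and the other H3K27me3 peaks in 21.7%. For H3K9me1 these shares were 26.9 and 1.89%. H3K9me3 peaks on H3K27me3 lay on H3K4ac in 31.1% of cases, compared with 14.5% of the other H3K9me3 peaks. On H3K9me1, the shares of the H3K9me3 peaks were 38.1% of those on H3K27me3 and 31.6% of the others. As many H3K9me3 peaks lie on H3K9me1 anyway, an H3K27me3 peak that meets H3K9me3 has more chance to touch H3K9me1 as well. In each list 46 of the peaks that met touched a peak of each of the 5 other marks. Leaving these out, a setting chosen after seeing the data, takes only peaks on H3K4ac and H3K9me1 from the meeting group, so its shares fall by construction. For H3K27me3 peaks they were then 22.4% against 21.7% on H3K4ac and 15.8% against 1.89% on H3K9me1. For H3K9me3 peaks they were 19.9% against 14.5% on H3K4ac and 28.0% against 31.6% on H3K9me1.

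The share of meeting peaks changed with the class of bin. In bins high in H3K27me3 and low in H3K9me3, 9 of 48 H3K9me3 peaks lay on H3K27me3 (18.8%, 95% Wilson interval 10.2 to 31.9%), and in the reverse class 20 of 232 did (8.62%, 5.65 to 12.9%). In bins high in both marks 31 of 175 did (17.7%, 12.8 to 24.0%). In bins low in both, 0 of 27 did, which allows a share of up to 11.1% by a limit of 3 peaks and up to 12.5% by the Wilson interval. Where more of a bin was covered by H3K27me3, an H3K9me3 peak met it more often, and the median distance between them was 6.08 kb in the first class, 19.0 kb in the second and 3.83 kb in bins high in both. These shares and distances move with the covered length by which the bins were divided, so they are a description.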

How the data were processed

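ChIP-seq peaks of H3K27me3 and H3K9me3 from leaves of 2-week-old Nipponbare seedlings were compared, with 1 library per mark. The labels name Bowtie and the lists MACS 1.4; for these lists, the alignment settings, a control library and the genome build are not given in the sources used here. The deposited lists hold the start, the end and a score of each peak, and the score is the authors' peak caller value, with no normalization between libraries stated. Peaks within a list did not overlap. From them, covered bases were summed in bins of 500 kb, and Spearman's rho, percentiles (20 and 80) and 95% Wilson intervals were computed, all as descriptions without p-values; neighbouring bins are not independent, and intervals cover counting error only. The 4 other lists set the chromosome lengths and were summed in the same way. Depth is unknown. Bin sums were tested on simulated lists with known answers.

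The marks, bins and classes were chosen with earlier results of these data known. The bins named are, by rule, the 5 of each opposed class with the largest difference in rank, the highest bin of each mark and the richest windows of 2.5 Mb, and other bins were chosen after their values were seen. No gene is named, because the lists give positions and no build, and the gene table used for checking belongs to another assembly. The alternatives were other bin sizes, full bins, a minimum score of 100, equal numbers of peaks, peak numbers, peaks off acetylation, other percentiles, ranks within chromosomes and acetylation held fixed. Calculations ran in Python 3.11.15 with pandas 2.3.3, scipy 1.17.1 and numpy 2.4.6, and plots in matplotlib 3.10.9.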

Additional observations from a re-analysis of the deposited data

How the results depend on the processing

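The rho of -0.073 moved beyond the range given by leaving out single chromosomes with a score of at least 100 (-0.027), with equally many highest-scoring peaks of both marks (-0.033) and with acetylation held fixed (-0.031), and changed sign with the number of peaks per bin (0.0028). With the number of peaks, 5.31% of bins were high in both marks and 5.84% low in both, where bins tied at a limit can enlarge the classes. The top and bottom 25% gave 8.63% for high H3K27me3 with low H3K9me3, 6.91% for the reverse and 4.65% for low in both, and the top and bottom 10% gave 0.930% for high H3K27me3 with low H3K9me3, 1.33% for the reverse, 0.930% for high in both and 0.930% for low in both; wider or narrower limits change these shares by construction. The share of covered bases between 40 and 60% of the chromosome length was 16.3% for H3K27me3, with 17.5% by the number of peaks and 15.3% for peaks off acetylation. For H3K9me3 it was 21.0%, with 24.8% at a score of at least 100, which rests on 149 peaks. By the number of peaks it was 20.1%, within its range. That stretch is 20% of the length, so the H3K9me3 share of 21.0% was close to an even spread. The cause of the other changes was not tested. In total, 54 of 70 values stayed within their range. Among them were those of the settings added after seeing the data: without chromosome 5, without peaks that touch the 5 other marks, and as a share of bin length. The rho without chromosome 5, -0.044, is itself an end of the range for the rho and could not leave it. At a score of at least 100, 622 of 753 bins held no H3K9me3, so no classes could be formed. No paired analysis was possible because no mark has a second library, and for the same reason no replicate could be left out. The unknown depth limits every comparison of levels between the marks.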
